A study of Mus musculus with 5 samples.

Results

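The genes examined here encode the machinery of mitochondrial respiration and the mitochondrial ribosome. They were chosen by gene symbol: every row of the expression table with a single gene name that begins with Nduf, Cox4 to Cox8, Uqcr, Atp5, Sdha to Sdhd, or Mrpl or Mrps and a digit. This gave 118 genes of 12375 named rows, out of 14053 rows in all. They comprise 29 complex I genes, 4 complex I assembly factors, 3 complex II genes, 6 complex III genes, 13 complex IV genes and 11 ATP synthase genes, together with 33 genes of the large and 19 of the small mitochondrial ribosomal subunit. No expression value entered the choice. A further 26 rows carried such a name joined to that of a neighbouring gene and were not counted.

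The respiratory chain passes electrons from NADH (complex I) and succinate (complex II) through complex III to complex IV, cytochrome c oxidase, which reduces oxygen. The proton gradient built on the way drives ATP synthase. A few core subunits of complexes I, III, IV and ATP synthase are encoded by mitochondrial DNA and made on the mitochondrial ribosome, whose proteins are all encoded in the nucleus, so the chain and this ribosome depend on each other. Hepatocytes of the mature liver are rich in mitochondria.

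RNA was sequenced from 5 tissues of C57BL/6J mouse embryos: 3 taken at E10.5, namely liver, ventral pancreas, and dorsal pancreas, and 2 at E8.5, namely foregut and medial foregut, where E stands for the embryonic day. The labels name no mutation or treatment. The study asked what separates the hepatic from the pancreatic fate of the foregut endoderm. Each tissue is represented by a single library. Without replicates a difference cannot be weighed against replicate error, so no test was run and every value describes these libraries. The sources used here do not say whether animals were pooled or how the tissue was dissected. Expression was given as FPKM, the number of fragments scaled to transcript length and to 1000000 mapped fragments, which can be compared between genes; the depth in reads is unknown.

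Hepatic markers were highest in liver and pancreatic markers in the pancreatic libraries, although in ventral pancreas the hepatic sum was the larger of the 2; no list of foregut markers was run, so the labels of the E8.5 libraries were not checked this way. The 4 hepatic markers, led by Trf and Alb, summed to 3070 FPKM in liver, 289 in ventral pancreas, 43.6 in dorsal pancreas, 14.5 in foregut and 11.0 in medial foregut. The 5 pancreatic markers summed to 0.0605 FPKM in liver, 273 in ventral pancreas, 1431 in dorsal pancreas, 9.89 in foregut and 2.81 in medial foregut. The glucagon gene Gcg made up 208 FPKM of that sum in ventral and 1349 in dorsal pancreas, whereas Pdx1, a regulator of the pancreatic bud, stood at 39.2 and 40.9 FPKM there. Heart muscle genes (11 found of 14 listed) summed to 504 FPKM in liver, 26.8 and 22.4 in ventral and dorsal pancreas, 5319 in foregut and 9163 in medial foregut. In such bulk tissue, fewer cells of a type and less RNA per cell cannot be told apart.

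All 118 genes but Cox6a2 had a value above 0 in every library, and most stood among the more abundant rows. Their median percentile among the named rows was 88.85 in liver, 83.32 in ventral pancreas, 83.76 in dorsal pancreas, 83.42 in foregut and 84.81 in medial foregut. Together they took 2.21% of the summed FPKM of all rows in liver, against 1.70% in ventral pancreas, 1.82% in dorsal pancreas and 1.72% in each E8.5 library. As a description of how evenly they are expressed, the gap between a gene's highest and lowest library had a median of 0.54 on the log2(FPKM + 1) scale for these genes and 0.79 for all named rows. It reached 1, a factor of 2 in FPKM + 1, in 9 of the 118 genes (7.63%), against 38.5% of all named rows.

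Liver was the library of the highest value for 95 of the 118 genes, whereas 23.4% of all named rows had their highest value there. Abundant rows in general leaned toward liver: at a mean of 20 FPKM or more, 35.1% of named rows and 78 of 85 of these genes were highest in liver. The remaining genes were highest in ventral pancreas (10 genes, background 27.5%), medial foregut (9 genes, 15.1%), dorsal pancreas (3 genes, 22.2%) or foregut (1 gene, Mrps33, 11.8%). Liver was the lowest library for 39.9% of all named rows and for 5 of these genes: Ndufaf3, Cox4i2, Mrpl23, Mrpl47 and Mrps25. Foregut was the lowest library for 52 of the 118, against 15.7% of all named rows.

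**Figure D1:**
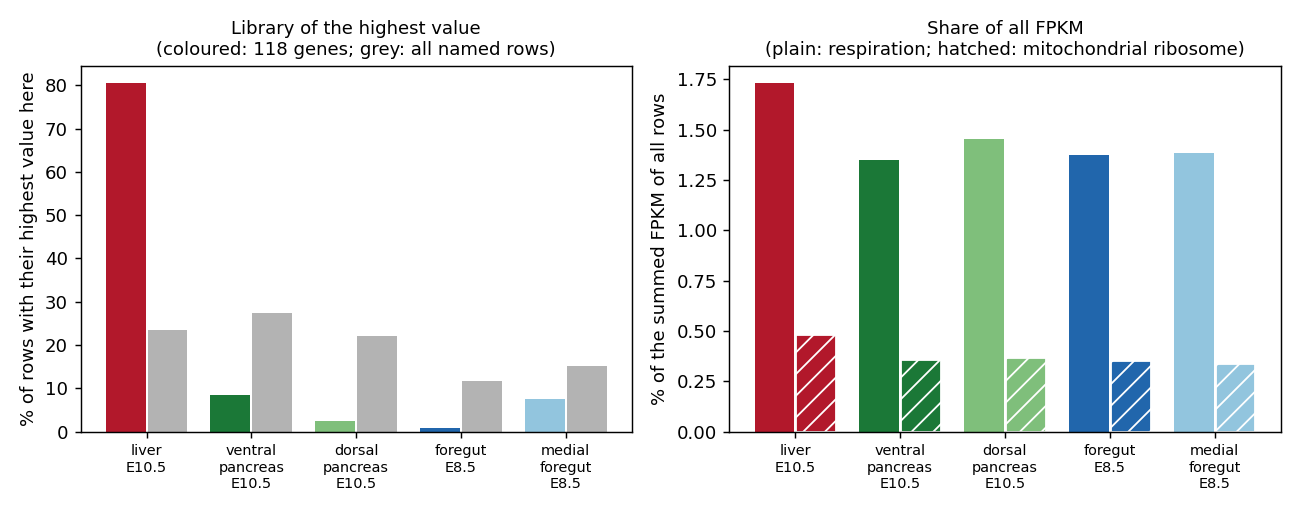
Left, percentage of rows whose highest FPKM lies in each library, for the 118 genes (coloured) and all 12375 named rows (grey). Right, percentage of the summed FPKM of all rows taken by the respiratory chain and ATP synthase genes (plain) and by the mitochondrial ribosome genes (hatched). Liver holds 95 of the 118 maxima and has the tallest bar in both classes of the right panel. There is 1 library per bar or pair of bars.

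The pattern is carried by most complexes rather than by a few genes. Highest in liver were 20 of 29 complex I genes, 3 of 4 assembly factors, 3 of 3 complex II genes, 5 of 6 complex III genes, 8 of 13 complex IV genes, 9 of 11 ATP synthase genes, 30 of 33 large and 17 of 19 small ribosomal subunit genes. Of the 75 genes whose locus overlaps no other row of the table, 60 were highest in liver. The joined rows, in which the reads of neighbours cannot be separated, were highest in liver in 21 of 26 cases. Among these, the row of Sdhd with AU019823, the membrane anchor of complex II with its neighbour, stood in liver at 233 FPKM, in ventral pancreas at 120, in dorsal pancreas at 95.8, in foregut at 99.8 and in medial foregut at 117.

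**Figure D2:**
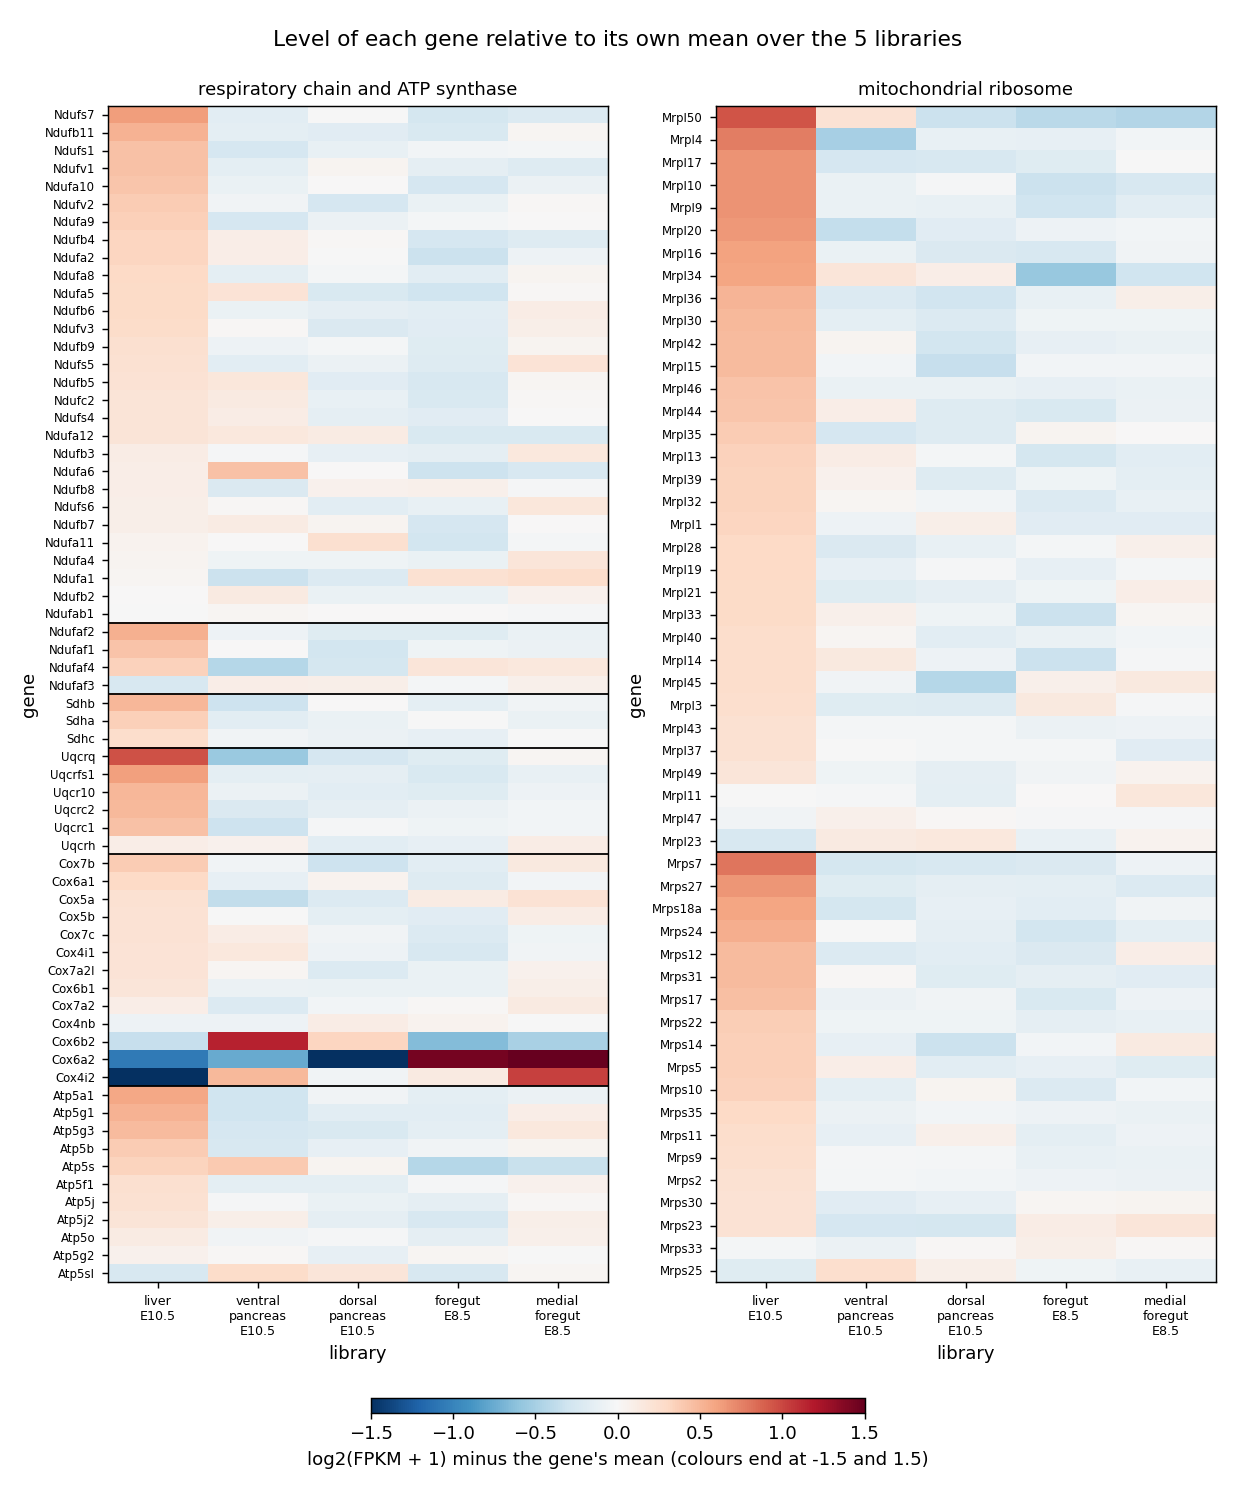
Level of each of the 118 genes in each library as log2(FPKM + 1) minus the gene's own mean over the 5 libraries; genes are sorted by their value in liver within each complex or subunit, separated by lines. The liver column is red for most genes, and Cox6a2, Cox4i2 and Cox6b2 show the strongest colours. Colours end at -1.5 and 1.5.

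Several nuclear factors are known to act at the promoters of such genes: NRF1, the ETS-family factor GABP and YY1. Promoters from RefSeq (build GRCm38.p6) were found for 99 of the 118 genes, as 101 windows of 300 bases, 250 before and 50 after the annotated start. Both strands were searched for GCGCATG, which is part of the NRF1 site GCGCATGCGC, for CCGGAAG, an ETS core, and for AAGATGG, a YY1 core. At least 1 of the 3 was present in 45.5% of these windows, in 24.8% of the 10690 windows of all single-name rows of the table and in 17.5% of all 32851 windows. The NRF1 motif was in 16.8% (6.34% of table rows, 3.91% of all), the YY1 core in 19.8% (6.21% and 6.34%) and the ETS core in 19.8% (15.1% and 8.86%). Respiratory genes held the NRF1 motif in 20.4%, the ETS core in 14.8% and the YY1 core in 14.8% of 54 windows, and ribosomal genes in 12.8%, 25.5% and 25.5% of 47 windows. A match describes the letters only and says nothing of binding in these tissues.

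The 250 bases before the start are printed for 4 genes that are among the higher ones in liver and carry such a motif, to show how the motifs lie; capitals mark the motifs, 5′ to 3′ toward the gene.
Mrpl17, chr7:105811088-105811337, minus strand: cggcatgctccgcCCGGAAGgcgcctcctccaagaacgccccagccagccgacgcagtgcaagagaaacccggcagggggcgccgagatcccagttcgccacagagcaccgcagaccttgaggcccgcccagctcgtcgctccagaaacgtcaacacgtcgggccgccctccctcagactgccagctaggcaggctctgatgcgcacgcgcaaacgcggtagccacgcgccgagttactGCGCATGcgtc
Mrpl9, chr3:94443086-94443335, plus strand: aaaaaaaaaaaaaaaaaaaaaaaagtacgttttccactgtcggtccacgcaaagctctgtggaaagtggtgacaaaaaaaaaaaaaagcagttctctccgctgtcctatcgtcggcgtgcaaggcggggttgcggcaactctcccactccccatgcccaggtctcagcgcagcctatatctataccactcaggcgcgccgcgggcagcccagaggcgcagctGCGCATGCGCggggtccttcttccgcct
Mrps27, chr13:99344536-99344785, plus strand: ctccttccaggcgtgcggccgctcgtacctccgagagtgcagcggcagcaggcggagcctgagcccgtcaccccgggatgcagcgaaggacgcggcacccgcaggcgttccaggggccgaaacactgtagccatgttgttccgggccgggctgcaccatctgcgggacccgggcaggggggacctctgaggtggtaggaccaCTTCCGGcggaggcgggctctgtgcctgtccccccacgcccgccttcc
Sdhb, chr4:140961021-140961270, plus strand: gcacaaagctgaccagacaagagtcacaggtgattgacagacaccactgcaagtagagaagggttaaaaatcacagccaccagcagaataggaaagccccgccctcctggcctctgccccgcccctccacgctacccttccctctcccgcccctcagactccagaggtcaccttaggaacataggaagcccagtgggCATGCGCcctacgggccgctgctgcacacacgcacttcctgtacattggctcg
Mrpl17 has an ETS core that begins 237 bases and an NRF1 motif that begins 11 bases before the start. In Mrpl9 the motif lies on both strands in an overlapping pair, 28 and 25 bases before the start, which together spell the palindrome GCGCATGCGC. Mrps27 has an ETS core 48 bases before the start and Sdhb an NRF1 motif 53 bases before it. The smaller of the differences between liver and each pancreatic library, in log2(FPKM + 1), was 0.91 for Mrpl17, 0.79 for Mrps27, 0.78 for Mrpl9 and 0.48 for Sdhb. Mrps7 (1.04), Mrpl20 (0.83), Uqcrfs1 (0.74) and Mrpl50 (0.73) had none of the 3 motifs in the 250 bases. Outside the printed bases, the 300-base windows of Mrps7 and Mrps27 hold a YY1 core and that of Sdhb an ETS core.

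The comparison of liver with both E8.5 libraries sets the later hepatic tissue against the foregut from which it arises. Respiratory and mitochondrial ribosome genes stood higher in liver by a modest factor shared across complexes. In 100 of the 118 genes liver exceeded both E8.5 libraries by any amount, against 38.2% of all named rows, and 10 genes lay below both, against 50.8%. When the rows were limited to a mean of at least 20 FPKM, liver was above both in 79 of 85 genes, against 44.3% of rows, and below both in 2, against 44.3%. The median ratio was 1.37 to foregut and 1.27 to medial foregut, while that of all named rows was 0.920 and 0.931. On the log2(FPKM + 1) scale the median difference was 0.43 and 0.32, beside -0.09 and -0.08 over all rows. A difference of at least 0.5 against both, with the highest library at 5 FPKM or more, was met by 30 genes on the higher side (background 10.6%) and 2 on the lower (13.4%). At a difference of at least 1, 1 gene was higher (5.24%) and 2 were lower (6.97%): Mrpl50 on the higher side, and Cox6a2 and Cox4i2 on the lower side. Most of the 100 genes thus differed by less than a factor of 2 in FPKM + 1. Leukocyte markers (4 found of 7) also differed in these libraries, at a sum of 78.1 FPKM in liver, 0.794 in foregut and 0.698 in medial foregut, where C1qb, C1qc and Cx3cr1 were listed at 0. Erythroid markers (3 found of 9) summed to 24.5 FPKM in liver, with 4.01 in foregut and 3.89 in medial foregut. Other marker sums were lower in liver, among them heart muscle as given above. Epithelial markers (5 of 5) summed to 376 FPKM in liver, against 696 in foregut and 983 in medial foregut. Neural markers (5 of 5) summed to 3.21 against 97.9 and 40.3, and endothelial markers (6 of 6) to 70.5 against 81.9 and 108. The mesenchymal sum (6 of 6) was 219 against 708 and 1168, most of it Acta2, at 133 against 635 and 1042. Of these 6 genes, 4 were below both E8.5 libraries in liver and 2, Col1a1 and Col3a1, above both. Col1a1 stood at 29.4 FPKM in liver against 2.71 and 6.32, and Col3a1 at 34.3 against 2.18 and 2.78. The part of these cell types in the differences was not tested.

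Most of these genes were also higher in liver than in both pancreatic buds of the same day, and 95 were above all 4 other libraries. This comparison shares the liver library with the previous one, so the values stand side by side and do not count as separate evidence. Liver exceeded both pancreatic libraries in 102 of the 118 genes (30.8% of all named rows) and lay below both in 8 (52.9%). When the rows were limited in the same way, liver was above in 83 of 85 genes, against 45.9%, and below in 0, against 38.4%. The median ratio was 1.32 to ventral and 1.33 to dorsal pancreas, against 0.860 and 0.865 over all named rows. The median differences were 0.39 and 0.40 on the log2(FPKM + 1) scale, and -0.17 and -0.16 over all rows. A difference of at least 0.5 was met by 30 genes on the higher (8.29%) and 2, Cox4i2 and Cox6b2, on the lower side (16.0%). At a difference of at least 1, Uqcrq and Mrps7 were higher (3.11%) and Cox4i2 was lower (6.7%). The sum of the leukocyte markers was 78.1 FPKM in liver, with 2.55 and 5.11 in ventral and dorsal pancreas, and that of 6 of 6 endothelial markers was 70.5 FPKM in liver, with 12.1 in ventral pancreas and 48.6 in dorsal pancreas. Epithelial markers (5 of 5) ran the other way, at 376 FPKM in sum in liver, with 1229 in ventral pancreas and 619 in dorsal pancreas. The 3 erythroid markers found of 9 came to 24.5 FPKM in liver, with 116 in ventral pancreas and 27.2 in dorsal pancreas. Most of each sum was Hbb-y, at 22.0, 111 and 24.4 FPKM. Neural markers came to 3.21 FPKM in liver, with 14.5 and 41.3 in ventral and dorsal pancreas. Most of the pancreatic sums was Pax6, at 7.24 and 26.2 FPKM, and Tubb3, at 4.09 and 13.1. Sox2, Elavl3 and Sox10 stood between 0.464 and 1.28 FPKM in the pancreatic libraries. Mesenchymal markers came to 219 FPKM in liver, with 55.2 and 135 in those libraries. Most of the liver sum was Acta2, at 133 FPKM, with 2.78 and 0.923 in ventral and dorsal pancreas. Pdgfra, Col3a1 and Foxf1a were higher in dorsal pancreas (35.0, 62.3 and 18.8 FPKM) than in liver (6.68, 34.3 and 0.859). Of the 6 mesenchymal genes, 3 were above both pancreatic libraries in liver and 1 below both. How far these cell types entered the differences was not tested.

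**Figure D3:**
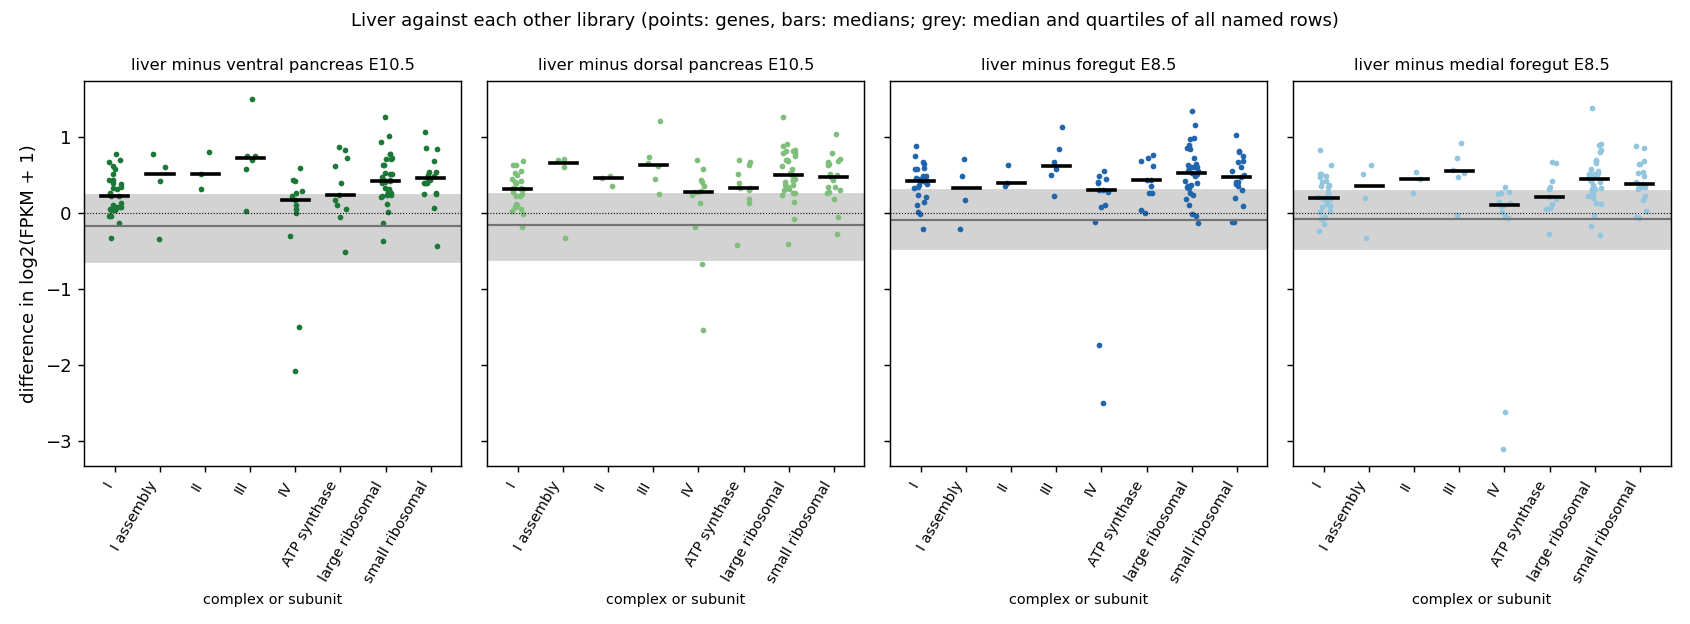
Difference between liver and each other library in log2(FPKM + 1); each point is 1 gene, bars are medians over the genes of a complex or subunit, and the grey line and band are the median and quartiles of all named rows. The medians of all 8 classes lie above 0 in all 4 panels, with complex III highest against ventral pancreas and both E8.5 libraries, and the points far below 0 are Cox6a2, Cox4i2 and Cox6b2.

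Complex I, the entry point for electrons from NADH, had median liver ratios of 1.37 to foregut, 1.15 to medial foregut, 1.21 to ventral pancreas and 1.26 to dorsal pancreas. Ndufs7, an iron-sulfur subunit next to the quinone site, had 96.7 FPKM in the liver library, 56.1 in that of ventral pancreas, 62.2 in dorsal pancreas, 52.1 in foregut and 54.1 in medial foregut. Ndufv1, which binds NADH and flavin, stood at 83.6 FPKM in liver and between 53.4 and 63.3 in the other 4 libraries. Ndufs1, the largest iron-sulfur subunit, stood at 33.1 FPKM in liver and between 20.0 and 23.5 elsewhere. A joined row of Eef1b2 and Ndufs1 has the same interval, at 558.5 FPKM in liver and 382 to 501 elsewhere. For these 3 genes, by their own rows, the liver value lay clear of the rest, which were close to each other.

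The gap between a gene's highest and lowest library ran from 0.05 for Ndufab1 to 0.88 for Ndufs7 on the log2(FPKM + 1) scale among complex I genes, and accessory subunits lay near both ends of it. Ndufb11, of the membrane arm, had the second widest gap, 0.75, in a row that spans 1771% of the annotated gene and overlaps Rbm10. Ndufs6, the most abundant of the complex at a mean of 224 FPKM, was highest in medial foregut, at 251 FPKM, with 238 in liver, 225 in ventral pancreas, 199 in dorsal pancreas and 206 in foregut. Ndufa2 and Ndufa5, the next by mean, stood at 196 and 161 FPKM in liver. Ndufa1, of the membrane arm, was lower in liver than at E8.5, with 19.7 FPKM in liver, 15.3 in ventral pancreas, 16.7 in dorsal pancreas, 22.9 in foregut and 23.4 in medial foregut. Ndufab1, the mitochondrial acyl carrier protein, was the most even of the 118 genes and lay between 7.23 and 7.50 FPKM in all 5 libraries. Ndufa4, now counted as a complex IV subunit despite its name, lay between 102 and 124 FPKM, highest in medial foregut. The lowest levels of the complex were those of Ndufb2 (mean 4.59 FPKM), Ndufa6 (1.90 FPKM, a row on the strand opposite to its annotation) and Ndufb4 (1.72 FPKM).

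Of the complex I assembly factors, which help to build the complex and are not part of it, 3 of 4 were highest in liver. Ndufaf2 measured 70.5 FPKM in liver, with 46.0 in ventral pancreas, 42.6 in dorsal pancreas, 42.8 in foregut and 45.4 in medial foregut. Ndufaf4 set the pancreatic libraries apart, since liver (21.6 FPKM), foregut (19.1) and medial foregut (18.7) lay above ventral pancreas (12.2) and dorsal pancreas (13.8). Ndufaf1 stood at 20.2 FPKM in liver and from 12.1 to 14.8 elsewhere. Ndufaf3, the lowest at a mean of 1.52 FPKM, had its lowest value in liver, at 1.12 FPKM.

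Complex II, which is also succinate dehydrogenase of the citric acid cycle, is built from 4 nuclear genes, of which 3 had a row of their own. Its flavin subunit gene Sdha stood in liver at 116 FPKM, in ventral pancreas at 80.8, in dorsal pancreas at 84.3, in foregut at 90.3 and in medial foregut at 84.4. The iron-sulfur subunit gene Sdhb had 149 FPKM in the liver library, 84.9 in that of ventral pancreas, 106 in dorsal pancreas, 95.6 in foregut and 102 in medial foregut. The membrane anchor gene Sdhc measured 130 FPKM in liver, with 105 in ventral pancreas, 102 in dorsal pancreas, 99.2 in foregut and 108 in medial foregut. In each of the 3 the liver value was the highest and the other 4 libraries lay near each other, and within a library the 3 genes had similar levels.

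Complex III, the cytochrome bc1 complex, had the highest median liver ratios of the 5 respiratory complexes, at 1.55 to foregut, 1.46 to medial foregut, 1.66 to ventral pancreas and 1.56 to dorsal pancreas. Uqcrq, a small subunit of the membrane part, had the largest ratio to ventral pancreas of all 118 genes. Its locus (mm9, chromosome 11, 53240277 to 53244465) stood in liver at 317 FPKM, in ventral pancreas at 111, in dorsal pancreas at 137, in foregut at 144 and in medial foregut at 167. The liver value was 2.85 times that in ventral pancreas and 2.31 times that in dorsal pancreas, and 2.19 and 1.89 times those in foregut and medial foregut. Uqcrfs1, the Rieske iron-sulfur protein, stood at 169 FPKM in liver and between 94.0 and 102 in the other libraries. The core subunit genes Uqcrc1 and Uqcrc2 stood at 149 and 164 FPKM in liver and at 88.0 and 100 in ventral pancreas, their lowest library. Uqcr10 stood at 228 FPKM in liver and between 143 and 154 elsewhere. Uqcrh, the hinge protein gene, was the exception, with a mean of 6.36 FPKM and its highest value, 6.95 FPKM, in medial foregut.

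Complex IV had the lowest median liver ratios of the complexes, at 1.24 to foregut, 1.08 to medial foregut, 1.13 to ventral pancreas and 1.22 to dorsal pancreas. The ubiquitous nuclear-encoded subunits were abundant in every library. Cox4i1 had 478 FPKM in the liver library, 460 in that of ventral pancreas, 391 in dorsal pancreas, 351 in foregut and 399 in medial foregut. Cox6b1 lay between 289 and 351 FPKM and Cox6a1 between 186 and 261 FPKM, both highest in liver. Cox5a had 233 FPKM in liver, with 154 and 173 in ventral and dorsal pancreas, while foregut and medial foregut, at 216 and 232, were close to liver. Cox7a2l, known for linking complex IV to complex III, lay between 93.7 and 125 FPKM. Cox4nb, named for its position next to Cox4i1 and not a subunit, lay between 7.80 and 8.99 FPKM; the table gives both genes the same interval.

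The widest differences of the whole set were those of complex IV isoforms that are known for restricted expression. Cox6a2, the heart and skeletal muscle isoform of subunit 6A (mm9, chromosome 7, 135346427 to 135349870), has a row that spans 361.4% of the annotated gene. It stood at 0.499 FPKM in liver and 0.850 in ventral pancreas, was listed at 0 in dorsal pancreas, and stood at 7.49 in foregut and 11.9 in medial foregut. It was the lower gene at a difference of at least 1 in ventral pancreas and in dorsal pancreas against both E8.5 libraries, and with Cox4i2 in liver. Its share of the pair with Cox6a1, a ratio that does not depend on scaling between libraries, was 0.190% in liver, 0.435% in ventral pancreas, 3.88% in foregut and 5.45% in medial foregut. Of the 11 heart muscle genes, 10 were highest in medial foregut, and their sums given above had the same order of medial foregut over foregut and of both over the E10.5 libraries. Within the E10.5 libraries the order differed. The heart muscle sum was 504 FPKM in liver and 26.8 in ventral pancreas, while Cox6a2 stood at 0.499 and 0.850 FPKM there. Which cells carried Cox6a2 was not tested.

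Cox4i2, the isoform of subunit 4 best known from lung and for its response to oxygen, ran differently (mm9, chromosome 2, 152579434 to 152590771). It measured 0.815 FPKM in liver, with 6.67 in ventral pancreas, 4.29 in dorsal pancreas, 5.03 in foregut and 10.2 in medial foregut. Liver had 0.122 times the value of ventral pancreas and 0.190 times that of dorsal pancreas, and its share of the pair with Cox4i1 was 0.170% in liver against 1.08% to 2.48% in the other libraries.

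Cox6b2, the isoform of subunit 6B known from testis (mm9, chromosome 7, 4703388 to 4704663), marked the pancreatic libraries. It stood in liver at 5.40 FPKM, in ventral pancreas at 17.0, in dorsal pancreas at 9.15, in foregut at 4.17 and in medial foregut at 4.77. Ventral pancreas was highest and dorsal pancreas next, and the other 3 libraries were close together. Its share of the pair with Cox6b1 was 1.52% in liver, with 5.52% in ventral pancreas, 3.07% in dorsal pancreas, 1.42% in foregut and 1.43% in medial foregut. Rows of their own for Cox7a1, Cox7b2, Cox8b and Ndufa4l2 were not analysed here.

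**Figure D4:**
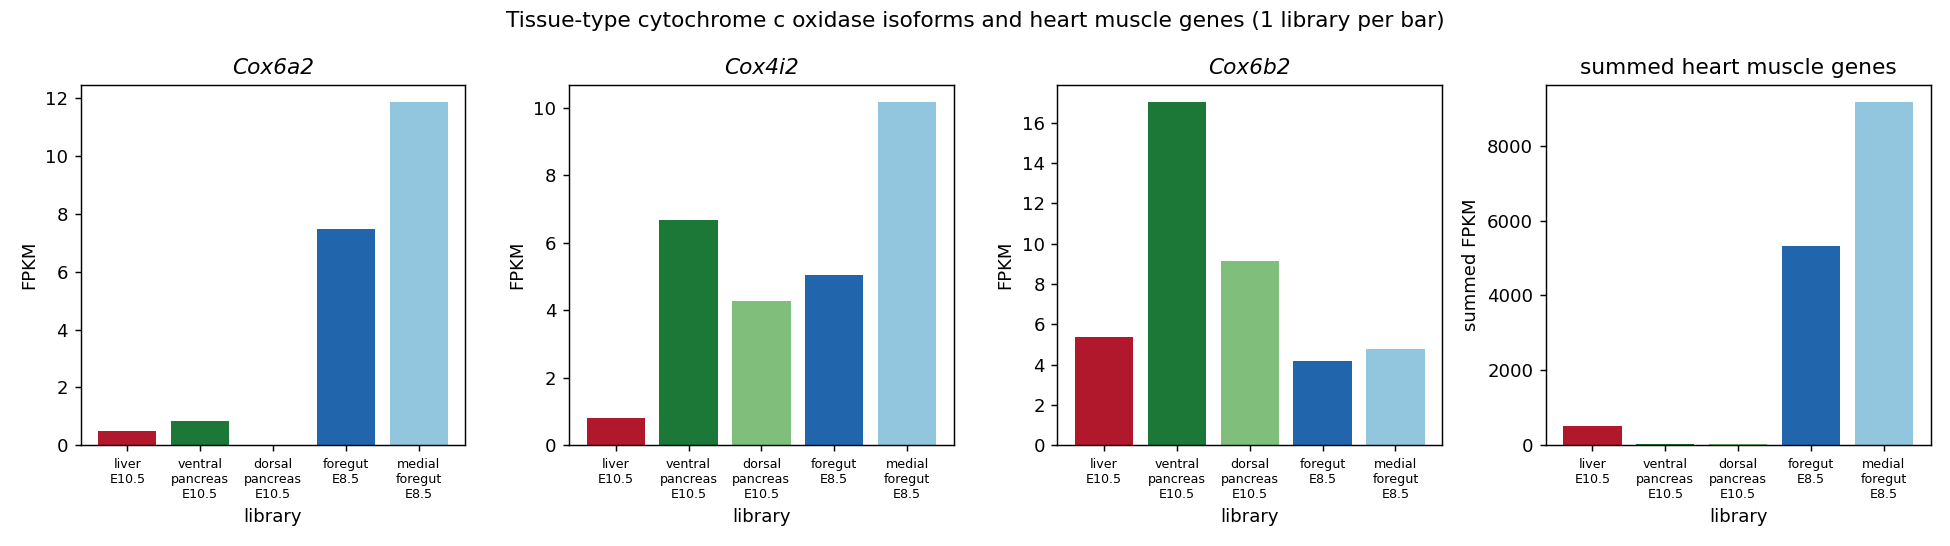
FPKM of Cox6a2, Cox4i2 and Cox6b2 and the summed FPKM of 11 heart muscle marker genes in each library, on linear axes that start at 0. Cox6a2 and the heart muscle genes are highest in the E8.5 libraries, Cox4i2 is lowest in liver at 0.815 FPKM, and Cox6b2 is highest in ventral pancreas at 17.0 FPKM. There is 1 library per bar and no error bar.

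ATP synthase genes held the highest single levels. Atp5b, the catalytic beta subunit, had the highest mean of the 118 genes and had 1062 FPKM in the liver library, 691 in that of ventral pancreas, 746 in dorsal pancreas, 787 in foregut and 838 in medial foregut. Atp5a1, the alpha subunit, measured 619 FPKM in liver, with 338 in ventral pancreas, 401 in dorsal pancreas, 375 in foregut and 391 in medial foregut. For both the liver value stood above 4 libraries that were close to each other. The ring-forming subunit c is encoded by Atp5g1, Atp5g2 and Atp5g3, which give the same mature protein. Atp5g3 stood in liver at 600 FPKM, in ventral pancreas at 364, in dorsal pancreas at 369, in foregut at 389 and in medial foregut at 480, whereas Atp5g1 (14.2 FPKM in liver) and Atp5g2 (9.79 FPKM in liver, on the strand opposite to its annotation) were low. Atp5g1 made up 2.03% to 2.30% of its sum with Atp5g3 over the 5 libraries. Atp5s and Atp5sl share the name but are not subunits of the enzyme, and both had their highest value in ventral pancreas, at 6.02 and 17.2 FPKM.

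The large mitochondrial ribosomal subunit had median liver ratios of 1.47 to foregut, 1.37 to medial foregut, 1.36 to ventral pancreas and 1.41 to dorsal pancreas. Mrpl50 had the largest ratios to the E8.5 libraries of all 118 genes, 2.59 and 2.66, and was the only gene called higher against both at a difference of 1. Its row (mm9, chromosome 4, 49525469 to 49533938) had 82.5 FPKM in the liver library, 49.4 in that of ventral pancreas, 33.8 in dorsal pancreas, 31.9 in foregut and 31.0 in medial foregut, so ventral pancreas lay between liver and the rest. Mrpl4, a protein that lines the exit tunnel for new peptides, measured 69.2 FPKM in liver, with 28.2 in ventral pancreas, 37.2 in dorsal pancreas, 37.0 in foregut and 39.1 in medial foregut. Mrpl17 stood in liver at 118 FPKM, in ventral pancreas at 61.2, in dorsal pancreas at 62.0, in foregut at 64.5 and in medial foregut at 73.0. For Mrpl4 and Mrpl17 the 4 other libraries did not separate E8.5 from the pancreas, and only liver stood apart.

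Mrpl34, Mrpl13 and Mrpl20 were the most abundant genes of the large subunit by mean. Mrpl34, whose row lies opposite to the annotated strand and overlaps Abhd8, had 122 FPKM in the liver library, 91.9 in that of ventral pancreas, 86.6 in dorsal pancreas, 54.4 in foregut and 65.6 in medial foregut. Mrpl20 stood at 122 FPKM in liver and between 59.7 and 74.9 elsewhere, and Mrpl10 and Mrpl9 at 65.1 and 64.2 FPKM in liver, against 32.3 and 32.2 in foregut. At the other end, Mrpl11 was highest in medial foregut (63.8 FPKM, against 56.5 in liver), and Mrpl23 was lowest in liver, at 3.54 FPKM, with 3.98 to 5.00 elsewhere. Mrpl47 (1.80 FPKM on average) and Mrpl19 (4.19 FPKM) were the low members together with Mrpl23.

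The small mitochondrial ribosomal subunit had median liver ratios of 1.40 to foregut, 1.32 to medial foregut, 1.40 to ventral pancreas and 1.41 to dorsal pancreas. Mrps7, which belongs to the head of the subunit, measured 42.2 FPKM in liver, with 19.7 in ventral pancreas, 20.1 in dorsal pancreas, 20.3 in foregut and 22.5 in medial foregut. Liver had 2.14 and 2.10 times the pancreatic values and 2.08 and 1.88 times those at E8.5; the row overlaps Gga3 and Nup85. Mrps27 stood at 51.6 FPKM in liver and between 28.0 and 29.5 in the other 4 libraries. Mrps24 and Mrps18a, the most abundant by mean, stood at 69.9 and 68.4 FPKM in liver and between 37.5 and 47.6 elsewhere. Mrps33 was even, between 30.9 and 35.3 FPKM, and Mrps25 was lowest in liver, at 8.58 FPKM, with 12.0 in ventral pancreas. Mrps22 (5.97 FPKM on average) and Mrps14 (8.81 FPKM) were lowest of the subunit.

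**Figure D5:**
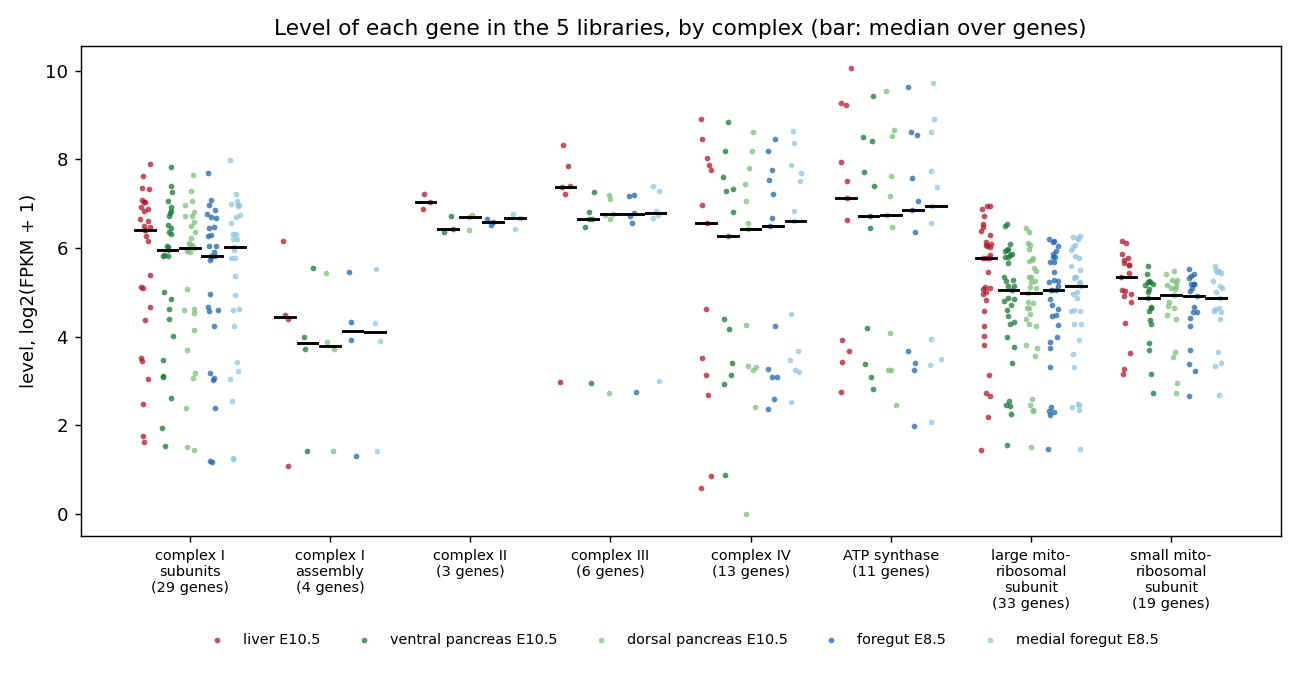
Level of each gene in log2(FPKM + 1), by complex or ribosomal subunit, in the 5 libraries from left to right as in the legend; points are genes and bars are medians over genes. The liver median is the highest of the 5 in 7 of the 8 classes (in complex IV medial foregut is higher).

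Ventral and dorsal pancreas were set against the E8.5 libraries to see whether the higher levels were shared by all E10.5 tissues. With the values as deposited they were not: the medians stayed near 0 and below those of all rows. Ventral pancreas exceeded both E8.5 libraries in 47 genes (52.7% of all named rows) and lay below both in 37 (34.0%), with median differences of 0.07 to foregut and -0.05 to medial foregut, beside 0.11 and 0.12 over all rows. At a difference of at least 1, Cox6b2 was higher (6.38%) and Cox6a2 lower (3.81%), and at 0.5 there were 3 genes on the higher side (13.6%) and 3 on the lower (7.07%). Dorsal pancreas exceeded both in 41 genes (52.1%) and lay below both in 45 (32.2%), with medians of 0.03 and -0.09, beside 0.09 and 0.11. No gene was higher at a difference of 1 (4.36%), and Cox6a2 was lower (3.2%); at 0.5 the counts were 1 higher (10.1%) and 2 lower (5.77%). Among the smaller differences, Ndufa12, of complex I, stood at 23.8 FPKM in ventral pancreas, with 23.2 in dorsal pancreas, against 17.9 in each E8.5 library. Atp5s stood at 6.02 FPKM in ventral pancreas, against 2.98 in foregut and 3.23 in medial foregut. Under median-ratio scaling these comparisons tilted to the lower side. Genes below both E8.5 libraries numbered 72 in ventral pancreas (44.2% of all rows) and 79 in dorsal pancreas (42.1%). Under scaling to a common total 71 genes (60.2%) were above in dorsal pancreas, near the 61.7% of all rows. The direction of these comparisons therefore depends on the scaling. As deposited and under both rescalings, the share of genes above both E8.5 libraries was below that of all rows for each pancreatic library.

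Between the pancreatic buds, ventral was above dorsal pancreas in 68 genes (51.7% of all named rows) and below in 50 (48.2%), with a median difference of 0.02. No gene passed a difference of 1 in either direction (3.28% higher and 2.47% lower over all rows), and at 0.5 there were 3 higher (8.04%) and 0 lower (5.97%). Cox6a2, Cox6b2, Cox4i2 and Mrpl50, given above, were the furthest on the ventral side, at 0.89, 0.83, 0.54 and 0.53, with Cox6a2 under 5 FPKM in ventral pancreas and listed at 0 in dorsal pancreas, and Mrpl4 and Sdhb the furthest on the dorsal side, at -0.39 and -0.32. Ndufa5 had 152 FPKM in ventral pancreas, against 112 in dorsal pancreas. The median difference changed sign under both other scalings, to -0.0017 under median ratios and -0.088 under a common total.

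Foregut against medial foregut compares the 2 tissues taken on the earlier day. Foregut was below medial foregut in 94 of the 118 genes, against 49.4% of all named rows, and above in 24 (50.4%), although the differences were small: the median was -0.11, beside 0.0019 over all rows. No gene passed a difference of 1 (0.469% higher, 0.275% lower), and at 0.5 there were 0 higher (2.0%) and 2 lower (3.39%). The largest were Cox4i2 at -0.89, Cox6a2 at -0.60 and Ndufs5 at -0.40, the last with 30.4 FPKM in foregut and 40.4 in medial foregut. Mrpl3, at 0.17, was furthest on the other side. Heart muscle genes were lower in foregut too, at 5319 against 9163 FPKM in sum. With each library scaled to a common total the count turned, to 68 above (70.2% of all rows) and 50 below (29.6%), so the direction rests on the scaling, and under both the share of genes above was smaller than that of all rows.

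At a difference of at least 2, which served as a stricter size, Cox6a2 alone was left. In liver 0 were higher (2.29%) and 1 lower (2.22%) than in both E8.5 libraries, and against both pancreatic libraries liver had 0 higher (1.04%) and 0 lower (1.65%). Against both E8.5 libraries, ventral pancreas had 0 higher (1.96%) and 1 lower (1.58%) and dorsal pancreas 0 higher (1.45%) and 1 lower (1.28%). None passed it between ventral and dorsal pancreas (0.913% higher and 0.768% lower) or between foregut and medial foregut (0.0404% and 0.00808%).

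The excess in liver held under the same scalings. Liver exceeded both E8.5 libraries in 107 genes under median ratios (44.2% of all rows) and in 95 under a common total (33.4%), and both pancreatic libraries in 110 (42.9%) and 87 (23.5%). Median ratios moved the liver library by 0.111 and the ventral and dorsal pancreas by -0.13 and -0.11 in log2 against foregut.

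Other mitochondrial genes, taken from lists of function, were looked at beside the set, and 84 of 122 listed had a row of their own. The 122 include 7 encoded by mitochondrial DNA, none of which had a row, so the 84 are all nuclear. Of the 84, liver exceeded both E8.5 libraries in 68 (38.2% of all named rows) and both pancreatic libraries in 60 (30.8%). It was the highest library for 55 (23.4%). Of the citric acid cycle genes, 11 of 11 found were highest in liver. Idh3a, the catalytic subunit of isocitrate dehydrogenase 3, stood in liver at 95.5 FPKM, in ventral pancreas at 32.6, in dorsal pancreas at 31.0, in foregut at 34.6 and in medial foregut at 37.7, and passed a difference of 1 in both liver comparisons. Citrate synthase (Cs) stood at 135 FPKM in liver and between 75.2 and 111 elsewhere. Mitochondrial chaperones and proteases were highest in liver in 8 of 8 cases, led by Hspd1 with 372 FPKM in liver, 147 in ventral pancreas, 165 in dorsal pancreas, 234 in foregut and 201 in medial foregut. In other lists liver was highest for 1 of 3 further complex I assembly factors and 4 of 9 assembly factors of complexes III and IV. It was also highest for 1 of 4 further ATP synthase factors and 4 of 6 genes of pyruvate entry. For mitochondrial DNA upkeep and transcription the count was 2 of 5. These lists are short, and some of their shares, 1 of 4 and 1 of 3 among them, lay near the 23.4% of all named rows. The 1 further electron carrier found, Cycs, was highest in liver, at 1.63 FPKM, with 0.885 to 1.24 elsewhere. Its row covered 18.4% of the annotated span. Of 16 import genes 11 were highest in liver, among them Tomm5 of the outer membrane translocase, with 282 FPKM in liver and 118 to 147 elsewhere.

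Translation factors and regulators were less uniform. Of 12 mitochondrial translation factors 8 were highest in liver, against 23.4% of all named rows. Lrpprc, which stabilises mitochondrial mRNA, stood at 67.8 FPKM in liver and between 36.4 and 48.1 elsewhere. Among 9 regulators of mitochondrial biogenesis 4 were highest in liver, beside the same 23.4%. Tfam, which packages and transcribes mitochondrial DNA, had 42.1 FPKM in the liver library, 24.6 in that of ventral pancreas, 21.9 in dorsal pancreas, 24.2 in foregut and 23.0 in medial foregut. Nrf1, the factor of the promoter motif above, was even, between 21.6 and 24.9 FPKM, and Gabpa, of the ETS family, stood at 24.6 FPKM in liver and 18.2 to 22.0 elsewhere. Gabpb1, the partner of Gabpa in GABP, was lowest in liver, with 14.1 FPKM in liver and 19.0 to 21.0 elsewhere. Polg, the mitochondrial DNA polymerase, whose row spans 375.9% of the annotated gene, had 17.5 FPKM in liver, 15.6 in ventral pancreas, 17.8 in dorsal pancreas, 47.3 in foregut and 77.4 in medial foregut. Of 8 hypoxia-responsive genes 2 were above (38.2% of all named rows) and 6 below (50.8%) both E8.5 libraries in liver. Their median difference was -0.33 to foregut and -0.38 to medial foregut, and Vegfa and Pdk1 were the 2 above both. Slc2a1, the glucose transporter GLUT1, had the widest difference of the 8, at 40.2 FPKM in liver, against 251 in foregut and 205 in medial foregut. Genes encoded by mitochondrial DNA had no named row among the 7 listed, so their transcripts were not analysed here.

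Some members are less certain than others. Of the 118 rows, 113 matched an annotated gene of that name on the same strand, 3 lay on the other strand (Ndufa6, Atp5g2 and Mrpl34), Mrpl33 covered 13.2% of the annotated span, and Atp5o matched none. Some of the 113 ran far beyond the annotated gene, among them Ndufaf3 (3137% of its span), Mrpl40 (2029%), Ndufb11 (1771%) and Mrps7 (1192%). The library preparation is not described as keeping strand, so reads of overlapping genes cannot be told apart, and 43 members overlapped another row. Mean levels below 10 FPKM were found in 23 members, of which 12 overlapped another row, and such levels for subunits of abundant complexes (Ndufb4, Ndufab1, Uqcrh, Cox7c) stood far below those of their partners; the sources used here do not say how reads shared with near-identical copies were counted.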

How the data were processed

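Poly(A) RNA from 5 mouse embryonic tissues was converted to paired-end libraries with random-hexamer priming and sequenced on an Illumina HiSeq, per the labels' protocols. The authors deposited 1 table of FPKM values, per the file headers, with an identifier, a locus, a strand and a short gene name in each row. TopHat 1.33, Cufflinks 1.3.0 and build mm9 appear in the submitters' processing notes without a stated role. The sources used here do not say how the libraries were scaled to each other. Columns were tied to tissues by the column name, which each sample's label repeats. Coordinates of loci are those of the table, in mm9; promoters are from RefSeq, build GRCm38.p6, and gene names and strands were checked against GENCODE M21 of GRCm38 without converting coordinates.

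Differences were computed in log2(FPKM + 1), a scale that understates the change of low genes. To count as higher or lower, a gene needed each difference of a comparison to be at least 1 with the same sign and its highest library to reach 5 FPKM. A smaller size of 0.5 and counts by any amount were added after seeing the data. The same rules over all 12375 named rows give the background percentages, and 1678 rows without a name entered no comparison. Alternatives were a pseudocount of 5 FPKM, rescaling by median ratios or to a total of 1000000, a minimum of 1 FPKM, a size of 2, joined-name rows counted too, and doubtful rows left out. Values of low rows were searched for whole-read steps: of 137 loci under 0.1 FPKM in both E8.5 libraries, at most 3 shared a ratio, so depth is unknown and no interval or floor is given. The counting scripts were tested on simulated data.

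Genes named in the text are, for each comparison, the 10 with the largest and the 10 with the smallest difference, in each complex or subunit the 3 highest and 3 lowest by mean level, all isoform pairs and all Sdh genes, with a selection of these given in the text. Of the function lists, genes that passed in a comparison and up to 4 per list could be named. Genes outside that rule that illustrate a subunit were chosen after their values were seen. The genes examined, the function lists and the markers were chosen with earlier results of these data known. Python 3.11.15, numpy 2.4.6, pandas 2.3.3 and matplotlib 3.10.9 were used.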

Additional observations from a re-analysis of the deposited data

How the results depend on the processing

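No paired analysis was possible because each tissue has 1 library, and for the same reason no replicate could be left out. The cause of each shift below was not tested unless the setting itself gives it. The excess in liver kept its direction in every setting tried. Its median over foregut was 0.54 under median ratios and 0.31 under a common total of 1000000, and over ventral and dorsal pancreas 0.62 and 0.62 under median ratios, with 0.21 over dorsal pancreas under the total. Genes below both E8.5 libraries numbered 5 under median ratios (44.6% of all rows) and 6 at a mean of 5 FPKM or more. Genes below both pancreatic libraries numbered 16 under the total (60.3%) and 5 at that mean. No share of all rows was computed at that mean.

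The other medians turned with the scaling. Under median ratios ventral pancreas had -0.052 against foregut and -0.18 against medial foregut, dorsal pancreas -0.077 and -0.21, and ventral against dorsal pancreas -0.0017. Under the total, ventral pancreas had 0.047 and dorsal pancreas 0.12 against medial foregut, ventral against dorsal pancreas -0.088, and foregut against medial foregut 0.030. Genes above and below both E8.5 libraries under median ratios numbered 19 and 72 in ventral pancreas and 16 and 79 in dorsal pancreas. Under the total they were 71 and 18 in dorsal pancreas, 40 and 78 in ventral against dorsal pancreas, and 68 and 50 in foregut against medial foregut.

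Counts past a size were small, so single genes moved them. For sizes of 0.5 and 2 the shares of all named rows are given above. For the other settings no such share was computed, so their counts cannot be set against all rows. For liver against E8.5, 3 were higher under median ratios, 2 with joined rows and 30 at a size of 0.5, with 0 higher and 1 lower at a size of 2, 1 lower with a pseudocount of 5 FPKM, and 1 lower at a mean of 5 FPKM or more. For liver against pancreas, 7 were higher under median ratios and 1 under the total, 1 higher and 0 lower with a pseudocount of 5, 0 and 0 at a size of 2, and 30 and 2 at 0.5. For ventral pancreas against E8.5, 0 were higher at a size of 2, 2 with joined rows, 3 higher and 3 lower at 0.5, and 0 lower at a mean of 5 FPKM. For dorsal pancreas, 1 was higher under the total, 1 higher and 2 lower at 0.5, and 0 lower at a mean of 5 FPKM. For ventral against dorsal pancreas, 1 was higher with joined rows and 3 at 0.5, and 2 were lower in foregut than in medial foregut at 0.5. A minimum of 1 FPKM, and leaving out rows on the other strand, partial or unmatched, moved no count by more than 1.5 times.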
